A study of Mus musculus with 6 samples.

Results

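The focal adhesion adaptor genes described here are 10 genes whose proteins tie integrins to the actin cytoskeleton, namely Vcl, Tln1, Zyx, Flna, Pxn, Ilk, Ptk2, Fermt3, Parvg and Actn1. Every probe set (a set of short probes whose combined brightness gives 1 value) that the array annotation assigned to 1 of these genes alone was taken, which gave 21 probe sets for 9 of the 10 genes, out of 45037 probe sets and 18193 genes in all. No probe set named Ptk2, the focal adhesion kinase gene, alone in the annotation used here, so Ptk2 was not analysed here. The members had between 1 probe set (Flna, Ilk) and 4 probe sets (Fermt3).

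RNA was measured on 6 Affymetrix arrays, 3 SRF-null and 3 control, made from sorted LSK cells of C57BL/6 mice. LSK cells are bone marrow cells that lack lineage markers and carry Sca1 and c-Kit, and they include blood stem cells as well as progenitors with several fates. SRF-null cells came from Srf flx/flx;Mx1-Cre mice and control cells from Srf+/+;Mx1-Cre mice, so both genotypes carried the Cre transgene. Both also received pIpC, a double-stranded RNA that induces interferon and with it the Mx1 promoter that drives Cre, starting at the age of 6 weeks, as 3 doses of 200 µg spaced 2 days apart. Cells were taken 35 days after the last dose. The Mx1 promoter responds to interferon in many cell types, so deletion need not be limited to LSK cells. Animals were pooled before sorting. The labels do not say how many entered a pool or whether pools shared animals, so every p-value covers the spread between these 6 arrays alone. In sorted but bulk RNA, fewer cells of a type and less RNA per cell cannot be told apart. The comparison asked which transcripts differ between LSK cells with and without SRF, a transcription factor that controls many genes of the actin cytoskeleton.

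Focal adhesions form where integrins, the receptors that bind extracellular matrix, cluster at the cell surface. Talin (Tln1) and kindlin-3 (Fermt3) bind the tail of the integrin beta chain and switch the receptor to its active state, vinculin (Vcl) then reinforces the link from talin to actin, and alpha-actinin (Actn1) and filamin A (Flna) cross-link the filaments. Paxillin (Pxn) and zyxin (Zyx) are scaffolds that recruit signalling and actin-assembly proteins, and integrin-linked kinase (Ilk) joins with a PINCH protein and a parvin such as Parvg into a complex at the integrin tail. In blood-forming cells this machinery serves adhesion to the marrow niche and migration, kindlin-3 and gamma-parvin being the forms typical of hematopoietic cells. SRF acts on its target genes through a DNA motif called the CArG box, and Vcl, Zyx, Flna and Actn1 are textbook targets of SRF and its actin-regulated cofactors.

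The DNA just upstream of the members' RefSeq transcription starts was read for this motif, because it is the sequence through which SRF would act directly. Promoter windows, each holding 250 bases before and 50 bases after a RefSeq start (build GRCm38.p6), were at hand for 8 of the 10 members, in 10 windows, while Pxn and Ptk2 had none in the table used. The 10-base CArG box was searched on both strands, once exactly and once with 1 mismatch allowed in its outer C and G positions, a search that also finds the exact boxes. An exact box was present in 1 member, Vcl, and a box at 1 mismatch in 1 further member, Flna. Over all 32851 windows, 1.63% held an exact box and 13.9% held a box with up to 1 mismatch. The members are counted by gene and these shares by window. DNA outside the windows was not searched, so a window without a box does not show that its gene lacks one. The Vcl box begins 227 bases before the start. The Flna box begins 44 bases before the start. Srf, which carries boxes in its own promoter, is shown for comparison with 2 exact boxes, beginning 82 and 62 bases before its start, and 1 box at 1 mismatch, beginning 39 bases before it. The stretches below run 5′ to 3′ on the gene's strand up to the base before the start, with the exact boxes of Vcl and Srf and the box of Flna at 1 mismatch in capitals, while the Srf box at 1 mismatch is in lower case. They lie at chr14:20929148-20929397 on the plus strand (Vcl), chrX:74246535-74246654 on the minus strand (Flna) and chr17:46556163-46556282 on the minus strand (Srf), and a match describes these letters only.
Vcl: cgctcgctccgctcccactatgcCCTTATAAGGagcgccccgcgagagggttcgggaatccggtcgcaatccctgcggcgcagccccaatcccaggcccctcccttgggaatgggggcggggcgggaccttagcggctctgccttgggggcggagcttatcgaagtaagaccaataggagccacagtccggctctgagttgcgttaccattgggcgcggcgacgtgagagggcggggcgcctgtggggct
Flna: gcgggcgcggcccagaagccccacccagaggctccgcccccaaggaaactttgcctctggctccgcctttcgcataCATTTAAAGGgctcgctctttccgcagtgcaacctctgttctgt
Srf: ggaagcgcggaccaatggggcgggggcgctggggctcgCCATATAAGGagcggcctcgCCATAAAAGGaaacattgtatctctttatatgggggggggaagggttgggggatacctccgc

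**Figure D1:**
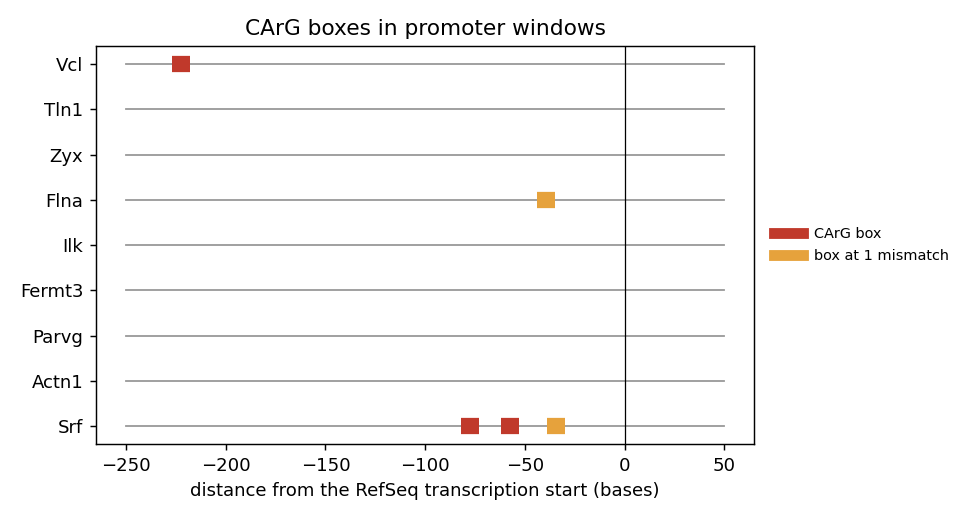
Position of CArG boxes in the promoter windows of the 8 members with a window and of Srf. The x axis is the distance from the RefSeq start in bases, grey lines are the windows, red blocks exact boxes and orange blocks boxes at 1 mismatch; among the members only Vcl has a red block and only Flna an orange one.

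All levels below are log2(signal + 16) after quantile normalization between arrays, and all differences are SRF-null minus control on that scale, on which 1 unit would be a doubling of signal plus offset. Because a probe set's brightness depends on its probes, no level is set against that of another gene. Before normalization the median signal per array was 200.5 to 292.1, and the upper quartile 5024 to 5320. The targeted gene Srf was at 12.58, 12.43 and 12.80 on the SRF-null arrays, against 13.04, 13.00 and 13.04 on the control arrays, on probe set 1418255_s_at (difference -0.42, SE 0.14, interval -0.77 to -0.08, limma adjusted p = 1). Its second probe set, 1418256_at, differed by 0.10 (SE 0.35), and the place of these probe sets relative to the deleted part is not known here, so they do not measure how complete the deletion was. Of the LSK markers, Kit was at 14.81 to 14.98, Cd34 at 16.74 to 16.93 and Flt3 at 15.27 to 15.60 on the SRF-null arrays. On the control arrays Kit was at 14.84 to 15.44, Cd34 at 16.72 to 16.78 and Flt3 at 15.10 to 15.69. Of the 10 LSK markers listed 8 were measured, 4 higher and 4 lower in SRF-null cells, with 0 at an unadjusted limma p under 0.05. Over all genes, each by its brightest probe set, 4.95% reached this p. No probe set named the Sca1 gene Ly6a alone. The marker with the largest difference, named after its values were seen, was Slamf1, at 11.61, 10.73 and 9.18 on the SRF-null arrays, against 11.60, 12.33 and 11.80 on the control arrays (-1.40, SE 0.62, interval -2.92 to 0.11). SRF-null replicate 1 lacked Xist (5.03, against 15.13 to 16.24 on the other 5 arrays) and control replicate 2 lacked the Y-linked Kdm5d (4.0, against 10.54 to 11.98), so these pools carried transcripts of 1 sex and the other 4 those of both.

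No member passed the test, and on the brightest probe set of each gene 8 of the 9 differences between SRF-null and control LSK cells lay between -0.18 and 0.18. By limma, 0 of 21 member probe sets passed an adjusted p of 0.05, as did 0 of all 45037 probe sets (0% of the background). At an unadjusted p under 0.05 there was 1 of 21 member probe sets (4.76%), lower in SRF-null cells, where 4.39% of all probe sets reached this p in either direction, 2.37% as higher and 2.02% as lower. That 1 probe set, 1433964_s_at of Fermt3, reached this p again with the replicate number as a block, but the count was 0 without control replicate 1, 0 without control replicate 2 and 2 without control replicate 3. The SRF-null arrays lay wholly on 1 side of the control arrays for 3 of 21 member probe sets (14.3%), against 9.24% of all, of which 4.74% had SRF-null above and 4.50% SRF-null below. These 3 were the bright Vcl probe set, above, and a pair of Fermt3 probe sets, below. The count over all probe sets at an unadjusted p under 0.05 was 1975, and it was 3189 with the replicate block and 3428 without control replicate 1.

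Differences of the members were small in both directions. In SRF-null cells 10 of the 21 probe sets (47.6%) had a higher mean and 11 a lower one, against 50% of all probe sets with a higher mean. The differences ran from -0.47 to 0.36, with a median of -0.01, where the median over all probe sets was 0.00. The median size of the difference regardless of sign was 0.12 for the members and 0.15 for all probe sets. Without SRF-null replicate 2 the members' median was -0.10. For the brightest probe set of each of the 9 genes the differences ran from -0.18 (Parvg) to 0.30 (Actn1). The 95% intervals of these 9 differences all lay within 1 log2 unit of 0, reaching from -0.53 (Zyx) to 0.76 (Actn1), and 6 of the 9 lay within 0.5. Among all 21 probe sets the intervals of 15 lay within 1 unit. The widest interval, -0.94 to 1.46, was that of the dim probe set 1457782_at of Tln1.

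**Figure D2:**
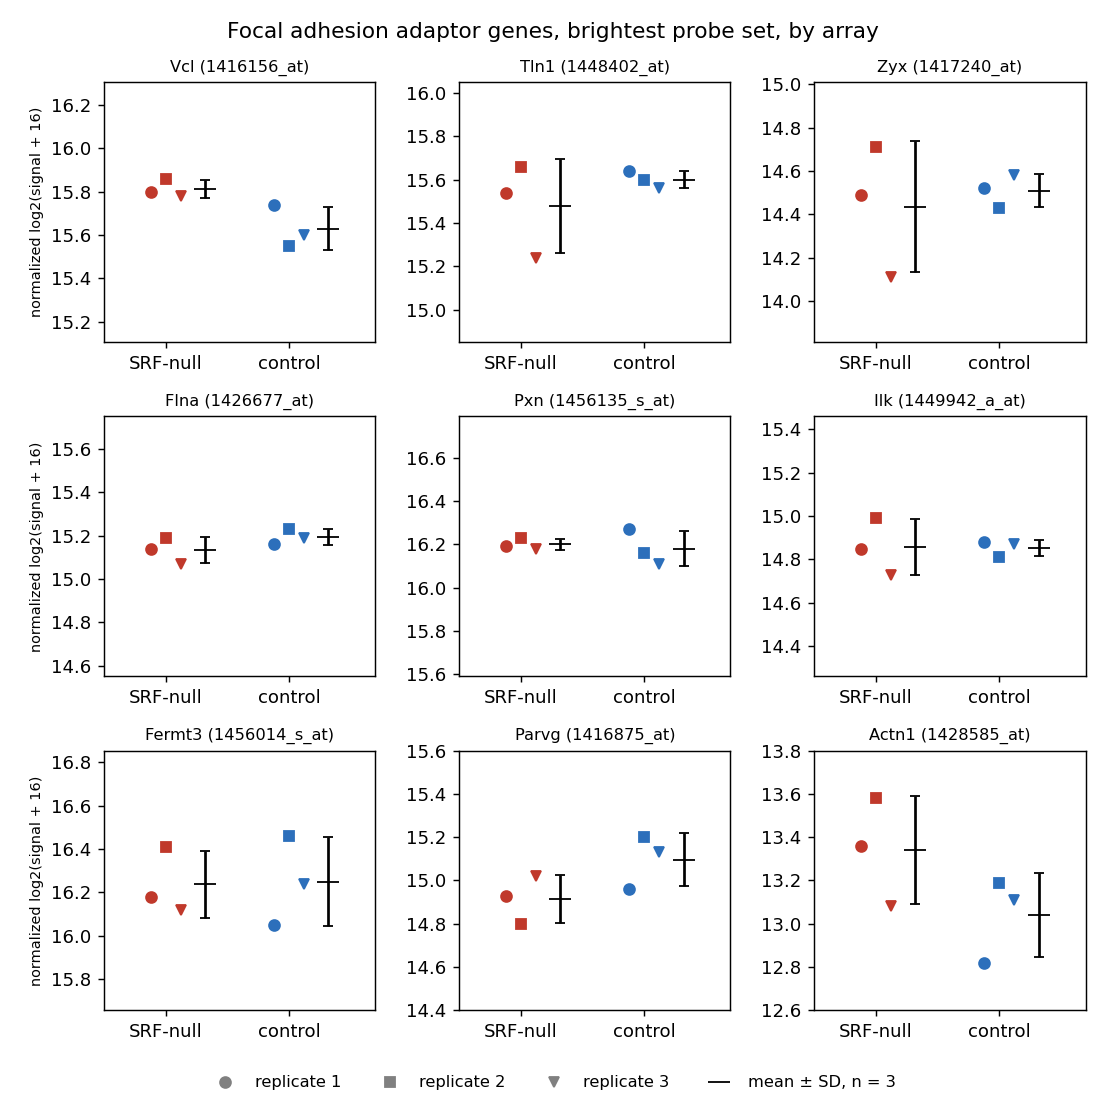
Normalized log2(signal + 16) of the brightest probe set of each of the 9 measured members (y axis, each panel spanning the same number of log2 units), with SRF-null arrays in red on the left and control arrays in blue on the right. Symbols give the replicate number and black bars the mean ± SD of 3 arrays; the groups are separate for Vcl and overlap in the other 8 panels.

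**Figure D3:**
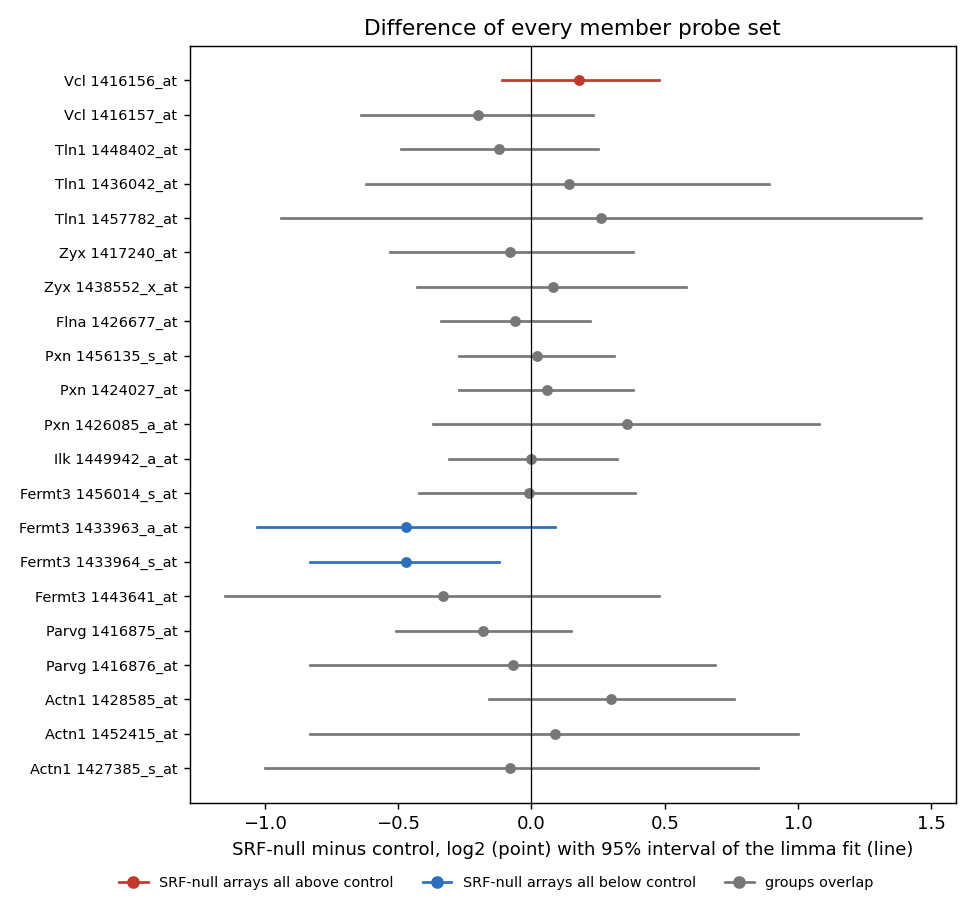
SRF-null minus control difference (x axis, log2) of all 21 member probe sets, as points with the 95% interval of the limma fit. Only the interval of Fermt3 1433964_s_at (-0.83 to -0.12) excludes 0, and the points run from -0.47 to 0.36.

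Among the integrin activators, talin differed by less than the spread between arrays and kindlin-3 gave different readings with different probe sets. Tln1, on its brightest probe set 1448402_at, was at 15.54, 15.66 and 15.24 on the SRF-null arrays, against 15.64, 15.60 and 15.56 on the control arrays. The groups overlapped, with SRF-null replicate 3 lowest of the 6, and the difference was -0.12 (SE 0.15, 95% interval -0.49 to 0.25). The dimmer Tln1 probe sets 1436042_at and 1457782_at differed by 0.14 (SE 0.31) and 0.26 (SE 0.49), on arrays that spread over 10.41 to 11.44 and 8.43 to 10.05.

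Fermt3 was at 16.18, 16.41 and 16.12 on the SRF-null arrays, against 16.05, 16.46 and 16.24 on the control arrays, on its brightest probe set 1456014_s_at. These values overlapped fully and differed by -0.01 (SE 0.17, interval -0.42 to 0.39). On 1433964_s_at Fermt3 was at 14.07, 13.76 and 14.02 on the SRF-null arrays, against 14.52, 14.44 and 14.31 on the control arrays. Here every SRF-null array lay below every control array, by a mean of -0.47 (SE 0.15, 1.39-fold lower), with a limma p of 0.0176 that did not pass adjustment (adjusted p = 1). The neighbouring probe set 1433963_a_at, designed on the same transcript record, was at 14.51, 13.86 and 14.41 on the SRF-null arrays, against 14.99, 14.66 and 14.53 on the control arrays. The groups were again separate, by only 0.02 between the closest arrays, and the difference was -0.47 (SE 0.23, interval -1.03 to 0.09), which became -0.27 without SRF-null replicate 2, where 1433964_s_at gave -0.38. The dim probe set 1443641_at differed by -0.33 (SE 0.33), a value set by control replicate 1 (10.51, against 9.24 to 9.61 on the other 5 arrays), and it was 0.03 without that array. Over the 6 arrays, as a description, 1433963_a_at and 1433964_s_at varied together (Pearson r = 0.93), whereas neither varied together with the brightest probe set (r = -0.52 and -0.23). Within arrays, 1433964_s_at minus 1456014_s_at was -2.10, -2.66 and -2.10 on the SRF-null arrays, against -1.53, -2.02 and -1.93 on the control arrays. These SRF-null ratios were all lower, by a mean of -0.46, a separation already seen in the levels that led to this contrast (exact two-sided permutation p = 0.1, the smallest that 3 against 3 arrays can give). For 1433963_a_at the same contrast was -1.67, -2.55 and -1.70 on the SRF-null arrays, against -1.05, -1.80 and -1.71 on the control arrays, which overlapped (mean -0.45, exact permutation p = 0.6). For 1443641_at it differed by -0.32 (exact permutation p = 1). Which Fermt3 transcripts each probe set detects was not tested.

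**Figure D4:**
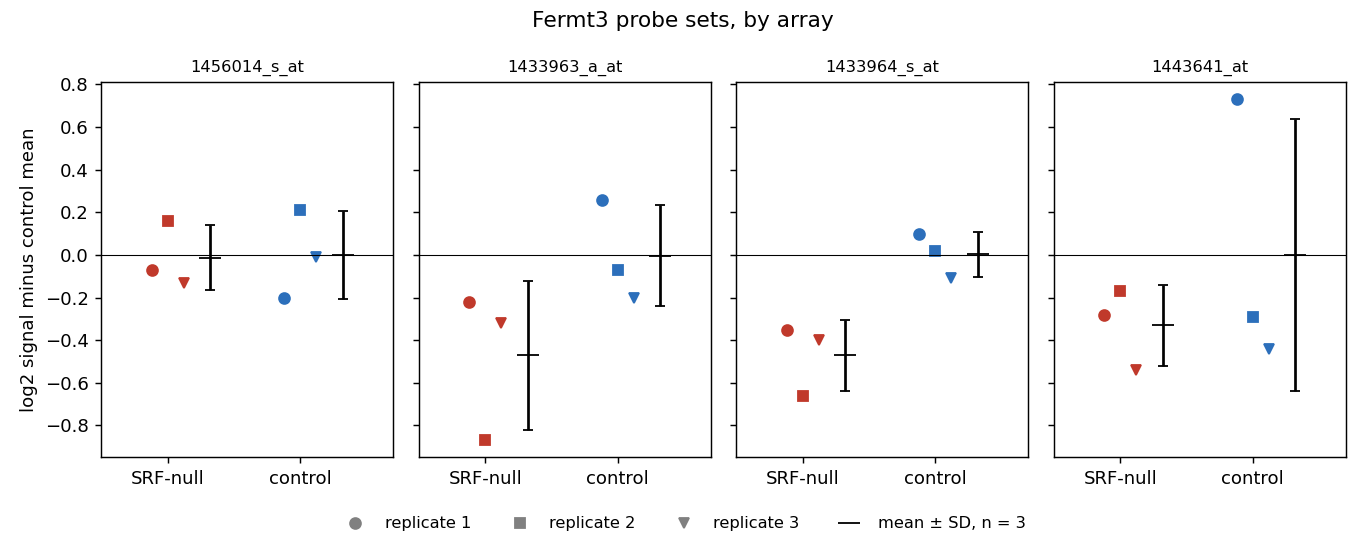
The 4 Fermt3 probe sets by array, from the brightest (left) to the dimmest, as log2 signal minus the control mean (y axis), SRF-null in red on the left of each panel and control in blue. Black bars are mean ± SD of 3 arrays; the SRF-null arrays lie below all control arrays on 1433963_a_at and 1433964_s_at and overlap them on the other probe sets.

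Of the proteins that carry the link on to actin, vinculin is a known SRF target with a CArG box in the window above. On the brighter of its 2 probe sets the values were higher on all 3 SRF-null arrays, without passing the test. It was the 1 member probe set of 21 (4.76%) with SRF-null wholly above, as were 4.74% of all probe sets. Vcl was at 15.80, 15.86 and 15.78 on the SRF-null arrays, against 15.74, 15.55 and 15.60 on the control arrays, on 1416156_at. The SRF-null arrays all lay above the control arrays, though by only 0.05 between the closest, and the difference of 0.18 (SE 0.12, 1.14-fold, interval -0.11 to 0.48) did not pass (limma adjusted p = 1). The interval's lower bound corresponds to 0.93-fold. The second probe set, 1416157_at, was dim, at 5.98 to 6.11 on the SRF-null arrays and 5.93 to 6.50 on the control arrays, and differed by -0.20 (SE 0.18). The mean of both probe sets differed by -0.01.

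Actn1 was at 13.36, 13.58 and 13.08 on the SRF-null arrays, against 12.82, 13.19 and 13.11 on the control arrays, on 1428585_at. The difference was 0.30 (SE 0.19, 1.23-fold, interval -0.16 to 0.76), and the groups overlapped because SRF-null replicate 3 lay below control replicates 2 and 3. It was 0.18 without SRF-null replicate 2, 0.19 without control replicate 1 and 0.10 for the mean of all 3 Actn1 probe sets. The dimmer Actn1 probe sets 1452415_at and 1427385_s_at, built on 1 transcript record, differed by 0.09 (SE 0.37) and -0.08 (SE 0.38) and tracked each other over the arrays (r = 0.94). Both were lowest on control replicate 1 (8.07 and 7.95), outside the range of the other 5 arrays.

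Flna was at 15.14, 15.19 and 15.07 on the SRF-null arrays, against 15.16, 15.23 and 15.19 on the control arrays. Its arrays lay close together, with an SD of 0.06 in SRF-null cells and 0.04 in control cells, and the difference of -0.06 (SE 0.12, interval -0.34 to 0.22) was within 1 SE. Flna lies on the X chromosome. The array without Xist (SRF-null replicate 1, 15.14) lay between the other SRF-null arrays, and the array without Y-linked transcripts (control replicate 2, 15.23) was the highest control array.

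The scaffolds paxillin and zyxin differed by less than the spread between arrays. Pxn was at 16.19, 16.23 and 16.18 on the SRF-null arrays, against 16.27, 16.16 and 16.11 on the control arrays, on 1456135_s_at (difference 0.02, SE 0.12, interval -0.27 to 0.31). A second bright probe set, 1424027_at, gave 0.06 (SE 0.13). The third, 1426085_a_at, was dim, at 6.07 to 6.50 on the SRF-null arrays and 5.48 to 6.51 on the control arrays, and gave the highest difference of any member probe set, 0.36 (SE 0.30, interval -0.37 to 1.08). Its control values were the more scattered (SD 0.22 in SRF-null cells and 0.54 in control cells), and without control replicate 3 it came under an unadjusted p of 0.05. Zyx was at 14.49, 14.71 and 14.11 on the SRF-null arrays, against 14.52, 14.43 and 14.58 on the control arrays, on 1417240_at. SRF-null replicates 2 and 3 were the highest and the lowest of all 6 arrays, so the difference of -0.08 (SE 0.19) was 0.09 without SRF-null replicate 3. The other Zyx probe set, 1438552_x_at, of a class that can cross-hybridize, gave 0.08 (SE 0.21) and followed the first (r = 0.78).

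In the complex of integrin-linked kinase the kinase gene itself differed by less than the spread between arrays. Ilk was at 14.85, 14.99 and 14.73 on the SRF-null arrays, against 14.88, 14.81 and 14.87 on the control arrays, a difference of 0.00 (SE 0.13, interval -0.31 to 0.32). Parvg, the hematopoietic parvin, was at 14.93, 14.80 and 15.02 on the SRF-null arrays, against 14.96, 15.20 and 15.13 on the control arrays, on 1416875_at. Its SRF-null values lay mostly below the controls but overlapped control replicate 1, and the difference of -0.18 (SE 0.14, interval -0.51 to 0.15, limma adjusted p = 1) did not pass. Parvg's dimmer probe set 1416876_at had its lowest and highest values on SRF-null replicates 2 (11.00) and 3 (12.18) and differed by -0.07 (SE 0.31).

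Among the SRF-null pools, replicate 3 was the lowest on 14 of the 21 member probe sets (66.7%, against 32.8% of all probe sets) and replicate 2 the highest on 12 (57.1%, against 34.9%). Among the control pools, replicate 1 was the highest on 10 (47.6%, against 32.8%) and the lowest on 8 (38.1%, against 43.5%). These are descriptions, since probe sets of 1 gene are not independent. The median deviation of the members from their group mean was -0.12 on SRF-null replicate 3 and 0.06 on SRF-null replicate 2, against -0.02 to 0.02 on the control arrays. RNA quality was read from the Actb and Gapdh control probe sets, as the signal at the 3′ end over that at the 5′ end, with log2 ratios for Actb of 0.93 to 1.51 on the SRF-null arrays and 1.18 to 1.45 on the control arrays. For Gapdh they were 0.67 to 1.16 on the SRF-null arrays and 0.97 to 1.20 on the control arrays. The ratio was lowest on SRF-null replicate 3 and, for Actb, highest on SRF-null replicate 2, and did not separate the genotypes (exact two-sided permutation p = 0.4 for each gene). Its part in the members' spread was not tested.

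**Figure D5:**
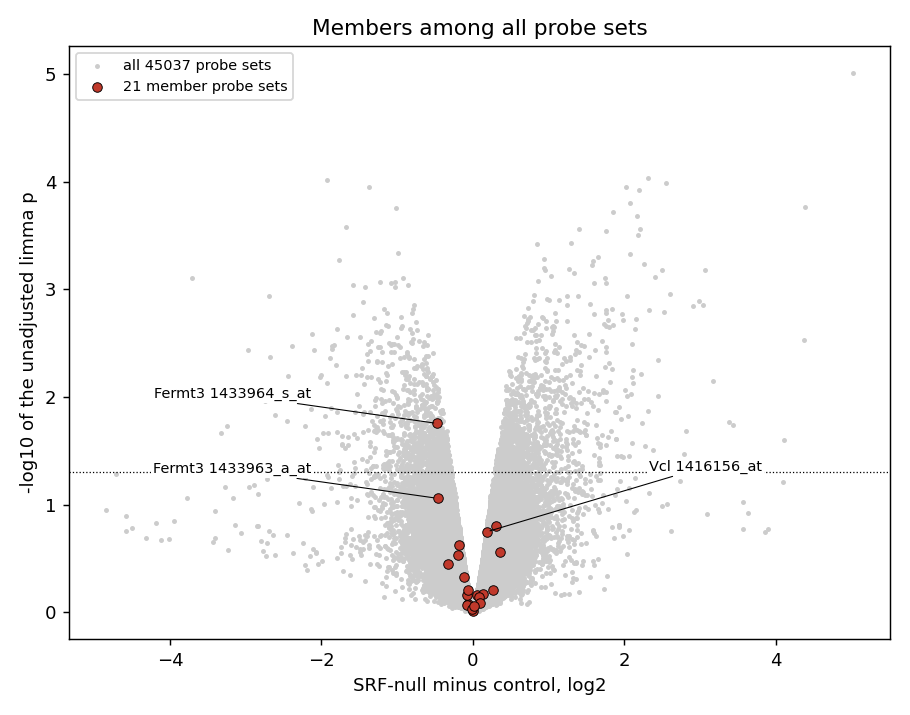
SRF-null minus control difference (x axis, log2) against -log10 of the unadjusted limma p (y axis) for all 45037 probe sets in grey and the 21 member probe sets in red. The dotted line marks an unadjusted p of 0.05, which 1 member probe set of Fermt3 passes; the members sit in the narrow middle of the cloud, between -0.47 and 0.36.

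Other focal adhesion genes were read from a list of 53 further genes, each by its brightest probe set, of which 49 were measured. Of these, 24 were higher and 25 lower in SRF-null cells (48.6% of all genes were higher), with a median difference of -0.02. By limma 0 of 49 passed adjustment, and 5 (10.2%) reached an unadjusted p under 0.05, 2 as higher and 3 as lower. Of all 18193 genes 4.95% did, 2.58% as higher and 2.37% as lower. The count of 5 depended on single arrays: it was 1 without SRF-null replicate 2, 2 without SRF-null replicate 3, 3 without control replicate 1, 1 without control replicate 2 and 2 without control replicate 3, and it was 0 with median centring. The groups did not overlap for 8 of the 49 genes, 2 with SRF-null above and 6 with SRF-null below, where 10.6% of all genes did not overlap, 5.16% with SRF-null above and 5.45% with SRF-null below.

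The 6 genes of this list with the smallest p, none of which passed (limma adjusted p = 1 for each), were Pdlim1, Git1, Evl, Tgfb1i1, Lims1 and Elmo1. Pdlim1, a PDZ and LIM protein that binds alpha-actinin, was at 14.13, 14.29 and 14.51 on the SRF-null arrays, against 14.70, 14.74 and 14.78 on the control arrays (-0.43, SE 0.14, interval -0.78 to -0.08). Git1, a partner of paxillin, differed by -0.35 (SE 0.12, interval -0.64 to -0.05). Evl, of the Ena/VASP family that zyxin recruits, was at 11.05, 11.66 and 12.14 on the SRF-null arrays, against 10.60, 10.70 and 11.00 on the control arrays (0.85, SE 0.30, interval 0.12 to 1.58), with the nearest arrays 0.05 apart. The paxillin relative Tgfb1i1 was at the bottom of the scale, at 4.06 to 4.64 on the SRF-null arrays and 4.64 to 5.27 on the control arrays (-0.64, SE 0.23), so its size depends on the offset. Lims1, which encodes the PINCH protein that binds integrin-linked kinase, was at 15.15, 15.07 and 15.04 on the SRF-null arrays, against 14.68, 14.71 and 14.88 on the control arrays (0.33, SE 0.12, interval 0.03 to 0.64). Elmo1, a subunit of a Rac activator, differed by -0.37 (SE 0.17, interval -0.79 to 0.05).

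The list held 17 genes of the same protein families as members, of which 15 were measured. Of these 7 were higher and 8 lower in SRF-null cells, with differences from -0.64 (Tgfb1i1) to 0.61 (the paxillin relative Lpxn, SE 0.47). By limma 0 passed adjustment and 1, Tgfb1i1, was at an unadjusted p under 0.05, which 4.95% of all genes reached. Of the 15, 9 had a mean level under 10. Among the alpha-actinins, Actn4 differed by -0.10 (SE 0.19, interval -0.57 to 0.37), the dim Actn2 by 0.57 (SE 0.48) and the dim Actn3 by -0.49 (SE 0.25). The focal adhesion kinase relative Ptk2b differed by -0.14 (SE 0.15, interval -0.51 to 0.22). Of the zyxin relatives, Trip6 was at 13.19, 13.34 and 13.31 on the SRF-null arrays, against 13.43, 13.58 and 13.57 on the control arrays (-0.25, SE 0.12, interval -0.55 to 0.05), all SRF-null arrays lying below, while Lpp differed by 0.07 (SE 0.27), Limd1 by 0.01 (SE 0.16) and Ajuba by -0.23 (SE 0.49). Of the parvins, Parvb differed by 0.38 (SE 0.43) and Parva lay under a signal of 16 on all arrays. Fermt2, near the bottom of the scale, was at 4.17 to 4.87 on the SRF-null arrays and 4.77 to 5.19 on the control arrays (-0.46, SE 0.23, interval -1.02 to 0.11). Tln2 differed by 0.02 (SE 0.19) and Flnc by 0.08 (SE 0.23).

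The integrin receptor list had 24 of 26 genes measured, 14 higher and 10 lower in SRF-null cells, with 0 passing adjustment and 2 (8.33%) at an unadjusted p under 0.05. Over all genes 4.95% reached this p and 48.6% were higher. Itgb2, the beta chain of the leukocyte integrins, was at 12.41, 12.52 and 12.12 on the SRF-null arrays, against 11.31, 11.33 and 11.92 on the control arrays (0.83, SE 0.22, interval 0.29 to 1.37). Itgb3, a beta chain of platelet and matrix receptors, was at 12.49, 12.53 and 13.11 on the SRF-null arrays, against 13.08, 13.35 and 13.82 on the control arrays, which just overlapped (-0.71, SE 0.27, interval -1.36 to -0.05). Itga9 differed by 0.71 (SE 0.32).

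Markers listed for other cell types, which may also carry some of these adaptors, were read beside the members, with signals summed before normalization. The members were not measured in those cell types here. The lists do not separate mature cells from progenitors that carry the same transcripts. Of the monocyte and macrophage markers 9 of 9 measured were higher in SRF-null cells (48.6% of all genes were), 4 of them (44.4%) at an unadjusted p under 0.05, where 2.58% of all genes were higher at this p. The smallest p was at Ctss (0.75, SE 0.19). Their summed signals were 67300 to 92500 on the SRF-null arrays and 31900 to 66200 on the control arrays. Ctss made up 42.2% to 66.3% of them, and without it the sums were 32000 to 43700 on the SRF-null arrays and 10800 to 37800 on the control arrays, with overlap. Of the T and NK cell markers 8 of 9 were higher, 5 of them (55.6%) at an unadjusted p under 0.05, with the smallest p at Cd7 (1.74, SE 0.28), while Cd3g lay under a signal of 16 on all arrays. Their sums of 77700 to 88300 on the SRF-null arrays and 58400 to 67500 on the control arrays were 94.2% to 97.6% Nkg7 (0.40, SE 0.13). Without Nkg7 they were 3960 to 4890 on the SRF-null arrays and 1380 to 1920 on the control arrays. In none of the marker lists did a gene pass adjustment. The sums overlapped for megakaryocyte and platelet markers (23800 to 58900 on the SRF-null arrays, 21300 to 35700 on the control arrays, smallest p at Gp9, 0.42, SE 0.19) and for granulocyte markers (355000 to 491000 on the SRF-null arrays, 284000 to 467000 on the control arrays, smallest p at S100a8, 1.10, SE 0.72). They also overlapped for B cell markers (73400 to 199000 on the SRF-null arrays, 58500 to 231000 on the control arrays, smallest p at Ebf1, 1.79, SE 0.95). Of the megakaryocyte and platelet markers 7 were higher and 2 lower, of the granulocyte markers 6 and 4, and of the B cell markers 8 and 1. Over all genes 48.6% were higher. In these marker lists 0 genes reached an unadjusted p under 0.05. Of the 7 erythroid markers measured 5 were higher and 2 lower, and Trim10 alone reached an unadjusted p under 0.05 (0.67, SE 0.18). That is 14.3% of them, where 2.58% of all genes were higher at this p. The erythroid sums were 37800 to 59500 on the SRF-null arrays and 45000 to 53900 on the control arrays, with overlap. Tfrc made up 86.8% to 96.6% of these sums. Without Tfrc they were 1290 to 7860 on the SRF-null arrays and 2260 to 2820 on the control arrays, with overlap. Pf4 made up 22.4% to 65.1% of the megakaryocyte and platelet sums. Mpo made up 39.5% to 50.5% of the granulocyte sums and Ighm 63.1% to 89.4% of the B cell sums. Without their brightest gene these sums overlapped too. Of the stromal and endothelial markers 6 were higher and 4 lower. Pdgfrb had the smallest p (0.65, SE 0.21), and Col1a2, also at an unadjusted p under 0.05, lay in the other direction, at 7.09, 8.44 and 8.61 on the SRF-null arrays, against 9.35, 11.16 and 8.96 on the control arrays (-1.78, SE 0.69). Their sums were 21700 to 32300 on the SRF-null arrays and 16900 to 19500 on the control arrays, of which Pdgfrb was 69.9% to 87%. Without Pdgfrb they were 3350 to 4200 on the SRF-null arrays and 3560 to 5690 on the control arrays, with overlap. The part of any such cells in the Vcl and Fermt3 values was not tested.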

How the data were processed

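The deposited values are linear intensities, 1 for each probe set on each array, a unit read from the values. The authors' summary algorithm, background correction and scaling are not given here. Per the labels, 30 ng of total RNA was amplified and labelled with a NuGEN kit for Affymetrix arrays. The array type in the study's description differs from that of the annotation, and the table of 45101 probe sets was used as it stands, less 64 control probe sets.

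Intensities were turned into log2(value + 16), which understates changes of dim genes. They were quantile normalized, since array medians differed by 0.51, and fitted by lmFit and eBayes of limma 3.58.1, run under R 4.3.3 (two-sided, with genotype as the single term) over all 45037 probe sets, of which 34945 named 1 gene, 932 several and 9160 none in the table used. P-values were adjusted by Benjamini-Hochberg over all probe sets, at a threshold of 0.05. The fit was also tested on simulated data, but the outcome is not given here and no result rests on it. Detection calls were not at hand, and precision is limited by the number of arrays. Listed genes were read by their brightest probe set. The 9 measured members matched a RefSeq gene table (GRCm38.p6) by gene ID with the same symbols, and promoters come from RefSeq of that build.

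Members, lists and alternatives were chosen with earlier results of these data known. The text names all members, Srf, the 6 and 3 genes with the smallest p of the adhesion and integrin lists, LSK markers and the first gene of each other marker list. Beyond that rule, Slamf1, Mrc1, C1qa, Adgre1, Nkg7, Col1a2 and the members' family relatives were named after their values were seen. Equal replicate numbers were taken to pair the arrays, because deviations from the group means correlated by 0.473, 0.210 and 0.427 for numbers 1, 2 and 3 over all probe sets, although pools of 1 sex carry different numbers. The fit reported and the permutation tests did not use this pairing, which entered only as the replicate block. Alternatives covered the offset, the scaling, a filter on dim probe sets, probe sets per gene, the variance model, the replicate block and left-out arrays. Figures were drawn with matplotlib 3.10.9.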

Additional observations from a re-analysis of the deposited data

How the results depend on the processing

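Under all 17 alternatives 0 member probe sets passed adjustment, while the count over all probe sets was 1 with median centring and 0 to 1 when 1 array was left out. The smallest adjusted p of any member was 0.656, without control replicate 1. The replicate block, fitted on the pairing by replicate number, left the members at 1 probe set under an unadjusted p of 0.05 (smallest adjusted p = 0.676) and changed no call, but raised the count over all probe sets to 3189. The members' count at this p was 0 with median centring, with the brightest or the mean probe set per gene and without the arrays of 1 sex, 2 with trended and robust variance, and 0 to 2 when 1 array was left out. The count over all probe sets at this p, followed after seeing the data, was 1230 with median centring, 1127 of 22519 with dim probe sets left out (5%, against 4.39% of 45037), 1042 and 941 of 18193 with the brightest and the mean probe set per gene (5.73% and 5.17%), 1291 without the arrays of 1 sex, and 1426 to 3428 when 1 array was left out. The members' median difference ran from -0.10 to 0.05 when 1 array was left out. The other focal adhesion genes counted 2 with an offset of 1, 0 with median centring, 3 without the arrays of 1 sex and 1 to 4 when 1 array was left out.

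Small differences changed sign. Averaging a gene's probe sets gave -0.01 for Vcl and 0.09 for Tln1 (and, with the sign kept, -0.32 for Fermt3 and 0.10 for Actn1), median centring gave -0.01 for Pxn, and 75th percentile centring and leaving out the arrays of 1 sex gave 0.02 and 0.13 for the brightest Fermt3 probe set. Leaving out 1 array gave -0.21 to 0.09 for Zyx, -0.02 to 0.06 for Pxn, -0.11 to 0.09 for the brightest Fermt3 probe set, -0.55 to 0.03 for Fermt3 1443641_at and -0.20 to 0.40 for Srf 1418256_at. The causes were not tested. Fermt3 1433964_s_at, followed under the alternatives after seeing the data, stayed below 0 in all 15 that keep probe sets (-0.53 to -0.38), as did 1433963_a_at (-0.62 to -0.27). The 75th percentile centring moved the median over all probe sets by 0.04 and the share of higher values among those at an unadjusted p under 0.05 to 61.9%, against 54.0% in the fit reported. Signal over background was not at hand, and dim probe sets had the widest intervals.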
